A study of Mus musculus with 2 samples.

Results

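The family of miR-15, miR-16, miR-195 and miR-497 was examined in small RNA of serum extracellular vesicles (EVs), the membrane particles that cells shed into blood. The 10 members are the arms of 3 pairs of neighbouring hairpins, Mir15a/Mir16-1, Mir15b/Mir16-2 and Mir195a/Mir497. They were taken by name from the tables as mmu-miR-15a-5p, mmu-miR-15a-3p, mmu-miR-15b-5p, mmu-miR-15b-3p, mmu-miR-16-5p, mmu-miR-16-1-3p, mmu-miR-16-2-3p, mmu-miR-195a-5p, mmu-miR-195a-3p and mmu-miR-497a-5p, and all 10 were found among 1847 listed mouse miRNAs. The 3p arm of Mir497 is not a member and is given for comparison only.

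Serum came from iFIRKO mice (Adipoq-CreERT2; Insr flox/flox), in which tamoxifen activates a Cre recombinase under the promoter of the adipocyte gene Adipoq and removes the insulin receptor from adipocytes, and from control mice. The labels call the controls WT, while the methods of the study describe mice with the floxed alleles and no Cre. All mice were males aged 7 weeks when treatment began, received tamoxifen at 100 mg/kg on 5 days, controls included, and serum was taken at day 3 after the injections ended. Each group was 1 library made from pooled serum, so animals cannot be told apart. These libraries allow no test between genotypes, and each interval below covers counting error only. In such EV RNA, fewer vesicles of a source and less miRNA per vesicle cannot be told apart. No listed miRNA reports the deletion of Insr and the tables hold no EV marker, so the files cannot show which library is which. The study's own account of these EVs puts the labels in doubt, and they may have been exchanged. All directions below follow the labels as given, and with exchanged labels each ratio would be its inverse, lower would read higher, and the family sum would be 1.38 times control in place of 0.727.

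miRNAs are short RNAs that guide silencing complexes to messenger RNAs, chiefly through the seed, bases 2 to 8 of the mature strand. A hairpin precursor holds a 5p and a 3p arm, of which the guide is usually loaded and the passenger usually degraded. The 5p guides of this family are known for restraining cell-cycle genes such as cyclins and for targeting Bcl2, and the loss of the human Mir15a/Mir16-1 locus is known from chronic lymphocytic leukaemia. miR-16 is abundant in red blood cells and in serum, where it is often used as a reference and is known to rise with haemolysis.

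The sequences below show what makes these miRNAs a family, with bases 2 to 8 in capitals, 5′ to 3′ (RefSeq, GRCm38.p6). All 10 names matched the RefSeq table. The 5 guide strands of the members come first, followed by miR-322-5p, the most abundant non-member with this seed.
miR-16-5p: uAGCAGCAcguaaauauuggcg
miR-195a-5p: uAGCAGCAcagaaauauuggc
miR-15a-5p: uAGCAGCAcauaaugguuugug
miR-15b-5p: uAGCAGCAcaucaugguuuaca
miR-497a-5p: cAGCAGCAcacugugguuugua
miR-322-5p: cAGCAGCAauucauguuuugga

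The 5 guide strands share the seed AGCAGCA and differ mainly in the 3′ part. miR-497a-5p also differs from the other guides at its first base (U1C). Counted from the 5′ end of miR-16-5p, miR-195a-5p differs over 21 shared positions only by G10A and U11G, the fewest mismatches of any pair of these guides. miR-15a-5p and miR-15b-5p differ at 4 of 22 positions, and miR-16-5p and miR-497a-5p at 11 of 22, the most. How the authors assigned reads with mismatched bases is not stated. The separate value of miR-195a-5p may therefore be less certain than those of the other guides, which was not tested. In control and iFIRKO, miR-16-5p had 994113 and 426219 counts, against 3927 and 1829 for miR-195a-5p. Reads exchanged between them would weigh far more on miR-195a-5p.

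The passenger strands show the opposite. Their 5 seeds are all different, so that the 3p arms share no seed with each other or with the guides. The seeds of miR-16-2-3p (CCAAUAU) and miR-195a-3p (CAAUAUU) do overlap with an offset of a single base. The 3p arms are printed here to show this.
miR-16-2-3p: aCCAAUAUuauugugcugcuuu
miR-16-1-3p: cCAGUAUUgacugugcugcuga
miR-195a-3p: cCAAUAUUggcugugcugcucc
miR-15b-3p: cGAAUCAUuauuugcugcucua
miR-15a-3p: cAGGCCAUacugugcugccuca

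The hairpins Mir16-1 and Mir16-2 are printed because their 5p arm is the same molecule, miR-16-5p, while their 3p arms can be told apart. Capitals mark both mature arms.
Mir16-1: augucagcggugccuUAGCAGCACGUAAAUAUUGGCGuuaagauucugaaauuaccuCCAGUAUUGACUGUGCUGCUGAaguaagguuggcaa
Mir16-2: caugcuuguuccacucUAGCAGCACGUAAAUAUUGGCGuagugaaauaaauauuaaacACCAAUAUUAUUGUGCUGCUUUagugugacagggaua

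Mir16-1 lies at chr14:61631880-61631972 on the minus strand (GRCm38), where it overlaps an annotated exon of the noncoding RNA Dleu2, and Mir15a lies 54 bases away at chr14:61632027-61632110 within a Dleu2 intron. Mir16-2 (chr3:69009902-69009996, plus strand) and Mir15b (chr3:69009772-69009835), 66 bases apart, share an intron of Smc4, which encodes a condensin subunit. Mir195a (chr11:70235042-70235135, plus strand) overlaps no other annotated gene. Mir497 (chr11:70234717-70234800, plus strand) lies 241 bases from Mir195a and Mir497b overlaps it on the opposite strand.

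Depth was 3817902 counts for control and 2233498 for iFIRKO, a 1.71-fold difference, and the lowest table entry stands for fewer than 10 counts. All 10 members were above that floor in both libraries. Levels are given as counts per 1000000 of depth (CPM), and mature members are 21 or 22 bases long, so that division by length does not change their order. Ratios are iFIRKO over control, with Clopper-Pearson 95% intervals.

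The family made up 27.5% of control counts (95% Wilson interval 27.41 to 27.50) and 19.96% of iFIRKO counts (19.91 to 20.01). The ratio of the sums was 0.727 (95% interval 0.724 to 0.730). The remaining 1837 miRNAs had a summed ratio of 1.10, and the family ratio was 0.660 times that of the rest (95% interval 0.658 to 0.663). Shares of a library are tied together, so a fall of an abundant family raises the share of the rest.

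miR-16-5p, the guide of both miR-16 hairpins, was the most abundant miRNA in each library. It had 994113 counts (260382 CPM) in control and 426219 counts (190830 CPM) in iFIRKO. It held 94.8% of the family counts in control and 95.6% in iFIRKO, and so set the family sum almost alone. Its ratio was 0.733 (95% interval 0.730 to 0.736). Without miR-16-5p the other 9 members had a summed ratio of 0.619 (95% interval 0.609 to 0.630), lower than that of miR-16-5p.

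miR-16-2-3p, the passenger strand of Mir16-2, was the next most abundant member. It had 32293 counts (8458 CPM) in control and 10519 counts (4710 CPM) in iFIRKO, and its ratio of 0.557 (95% interval 0.545 to 0.569) was the lowest of the family by the labels as given. With exchanged labels it would be 1.80 (95% interval 1.76 to 1.84) and the highest. The paper reports this miRNA as higher in iFIRKO, the reverse of the labelled direction. It ranked 27th among all miRNAs in control and 38th in iFIRKO, although it is a passenger strand.

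miR-15b-5p, the guide of Mir15b, had 11932 counts (3125 CPM) in control and 4241 counts (1899 CPM) in iFIRKO. Its ratio was 0.608 (95% interval 0.587 to 0.629). miR-15b-3p, its passenger, was counted 1160 times (304 CPM) in control and 409 times (183 CPM) in iFIRKO, giving 0.603 (95% interval 0.537 to 0.675). Both arms of Mir15b thus lay within counting error of each other.

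miR-195a-5p and miR-15a-5p, which come from different chromosomes, had ratios within counting error of each other, with miR-195a-5p at the higher level in both libraries. miR-195a-5p had 3927 counts (1029 CPM) in control and 1829 counts (819 CPM) in iFIRKO, a ratio of 0.796 (95% interval 0.753 to 0.842). For miR-15a-5p, 3199 control counts (838 CPM) stood against 1486 iFIRKO counts (665 CPM), which gave 0.794 (95% interval 0.746 to 0.845).

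miR-497a-5p was the only guide with a higher share of the iFIRKO library on the deposited scale. It had 1402 counts (367 CPM) in control and 958 counts (429 CPM) in iFIRKO, a ratio of 1.17 (95% interval 1.07 to 1.27). This direction ended when the libraries were scaled to the median of ratios (0.971) or to TMM factors (0.646), and with miR-148a-3p as reference the ratio was 1.003.

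The remaining 3 members are passenger strands with few counts. miR-195a-3p had 147 counts (38.5 CPM) in control and 118 (52.8 CPM) in iFIRKO, a ratio of 1.37 (95% interval 1.07 to 1.76) that fell to 0.759 with TMM factors. miR-16-1-3p, with 46 control counts (12.0 CPM) and 39 iFIRKO counts (17.5 CPM), had a ratio of 1.45 whose 95% interval (0.921 to 2.27) included 1, and which fell to 0.802 with TMM factors. miR-15a-3p went from 41 counts (10.7 CPM) to 20 counts (8.95 CPM), and its ratio of 0.834 had an interval from 0.463 to 1.46. For the last 2, no difference between the libraries was detectable at this depth.

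**Figure D1:**
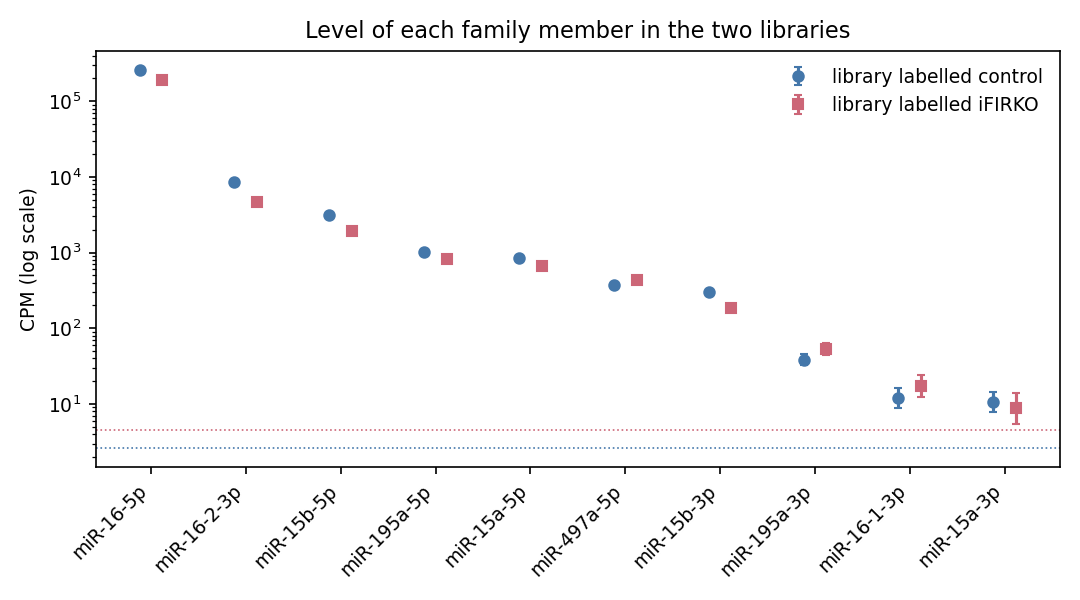
Level of each member in CPM on a log axis, in the control library (blue circles) and the iFIRKO library (red squares), with exact Poisson 95% intervals, which are narrower than the symbols for the abundant members. Dotted lines mark the floor of 10 counts in each library, and all 10 members lie above it, from 260382 CPM for miR-16-5p to 10.7 CPM for miR-15a-3p in control.

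Of the 10 members, 7 had a ratio below 1 and 3 above 1. Below 1 were also 11.9% of all listed miRNAs and 59.3% of those with a mean count over 1000. At the study's threshold of 1.5-fold, 3 members were lower in iFIRKO (miR-16-2-3p, miR-15b-3p and miR-15b-5p), whereas 3.03% of all listed miRNAs were. That share includes miRNAs at the floor. Among the 1736 above the floor in both libraries, as all members were, 21 were over 1.5-fold lower. No member was over 1.5-fold higher, whereas 66.3% of all listed miRNAs were. With exchanged labels these counts would swap sides, with the same 3 members over 1.5-fold higher and 66.3% of all miRNAs lower. In the study's own account, lower levels in iFIRKO mice were seen for most EV-miRNAs. Over all listed miRNAs on the deposited scale, this is the reverse of the labelled direction. Among the 118 with a mean count over 1000, however, 70 had a ratio below 1 by the labels. With TMM factors, 19.5% of all listed miRNAs were over 1.5-fold lower and 21% higher. The median log2 ratio was -0.33 for the members and 0.88 for all miRNAs. All miRNAs are dominated by scarce ones, whose ratios ran higher, so that abundance has to be set beside each member.

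Among the 118 miRNAs with a mean count over 1000 the median log2 ratio was -0.07, and 9.32% were over 1.5-fold lower in iFIRKO. Of these 118, 6 were members, with a median log2 ratio of -0.39, and 2 of the 6 were over 1.5-fold lower. The median log2 ratio was 0.53 among 302 miRNAs of middle abundance (mean count 100 to 1000) and 1.01 among 1350 scarce ones (10 to 100). Measured against the median of its own abundance class, 9 members lay below and 1, miR-497a-5p, lay above. miR-15b-3p was 1.26 and miR-15a-3p 1.27 log2 units under their class medians. miR-16-1-3p and miR-195a-3p, although above 1 in ratio, differed from their class medians by -0.47 and -0.07 log2 units. The part of abundance in these differences was not tested.

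**Figure D2:**
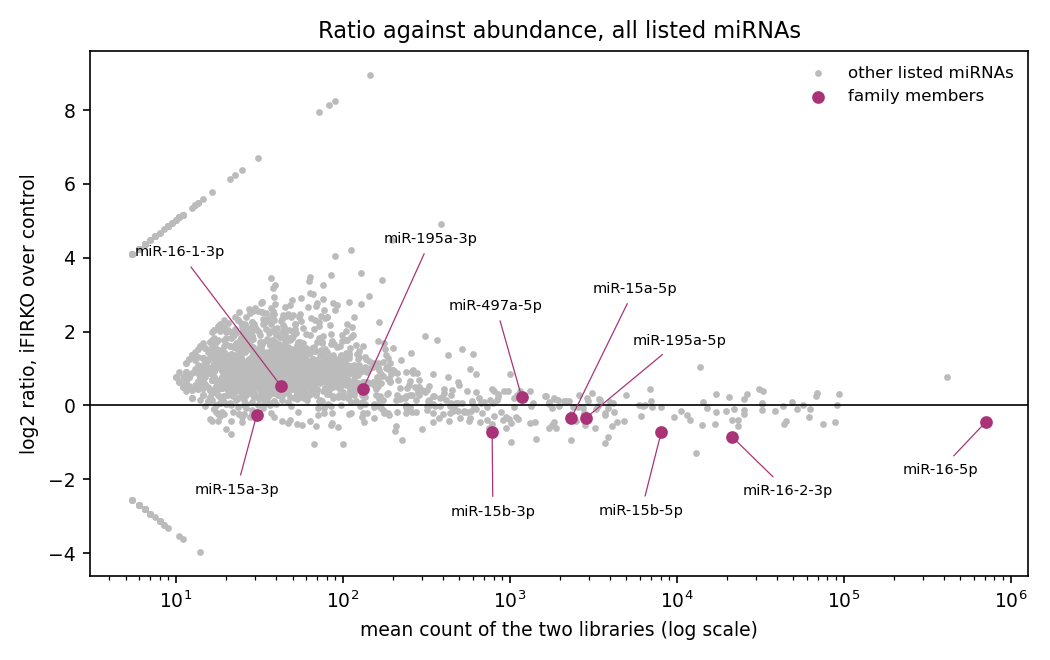
Log2 ratio of iFIRKO over control (vertical axis) against the mean count of the libraries (horizontal log axis) for all 1847 listed miRNAs, members in purple with names. The grey cloud lies above 0 at low counts and near 0 at high counts, members lie at or below the middle of the cloud at their abundance except miR-497a-5p, and the separate diagonal lines are miRNAs at the floor in 1 library.

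Counting error was examined with Fisher's exact test, which set the counts of 1 miRNA against all other counts and compared these libraries, not the genotypes. With Benjamini-Hochberg adjustment over 1736 miRNAs, 6 members were called lower in iFIRKO, a call that 4.84% of all tested miRNAs received. Another 2 members were called higher, against 60.5% of all. The 2 were miR-497a-5p (adjusted p = 0.00063, Fisher's exact test) and miR-195a-3p (adjusted p = 0.0188, Fisher's exact test). miR-15a-3p (adjusted p = 0.635) and miR-16-1-3p (adjusted p = 0.123) were not called by Fisher's exact test. No member was called higher once the libraries were scaled to the median of ratios, to miR-148a-3p, to TMM factors or to totals without the family. TMM also turned the balance of calls over all 1736 miRNAs, from 84 lower and 1050 higher as deposited to 307 lower and 205 higher, and the median of ratios gave 164 lower and 704 higher.

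The order of the ratios fell into steps. All 45 pairs of members were compared by Fisher's exact test, and 30 pairs differed with a Benjamini-Hochberg adjusted p under 0.05. Pairs of other miRNAs were not compared in this way, so this count cannot be called particular to the family. The lowest step held miR-16-2-3p, miR-15b-3p and miR-15b-5p, whose neighbours in the order did not differ beyond counting error. The ratio of miR-15b-3p was 1.08 times that of miR-16-2-3p (95% interval 0.965 to 1.21), while the ends of this step, miR-15b-5p and miR-16-2-3p, did differ, by a factor of 1.09 (95% interval 1.05 to 1.14). miR-16-5p stood apart, 1.21 times above miR-15b-5p (95% interval 1.16 to 1.25) and below miR-15a-5p, which was 1.08 times higher (95% interval 1.02 to 1.15). miR-15a-5p and miR-195a-5p differed by a factor of 1.003 (95% interval 0.923 to 1.09). Above them, no neighbouring pair differed beyond counting error, with intervals as wide as 0.816 to 2.41 for miR-497a-5p over miR-15a-3p. This does not make them 1 step, because the scarce miR-15a-3p stands between guides that did differ. The ratio of miR-195a-5p was 0.682 times that of miR-497a-5p (95% interval 0.617 to 0.753).

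**Figure D3:**
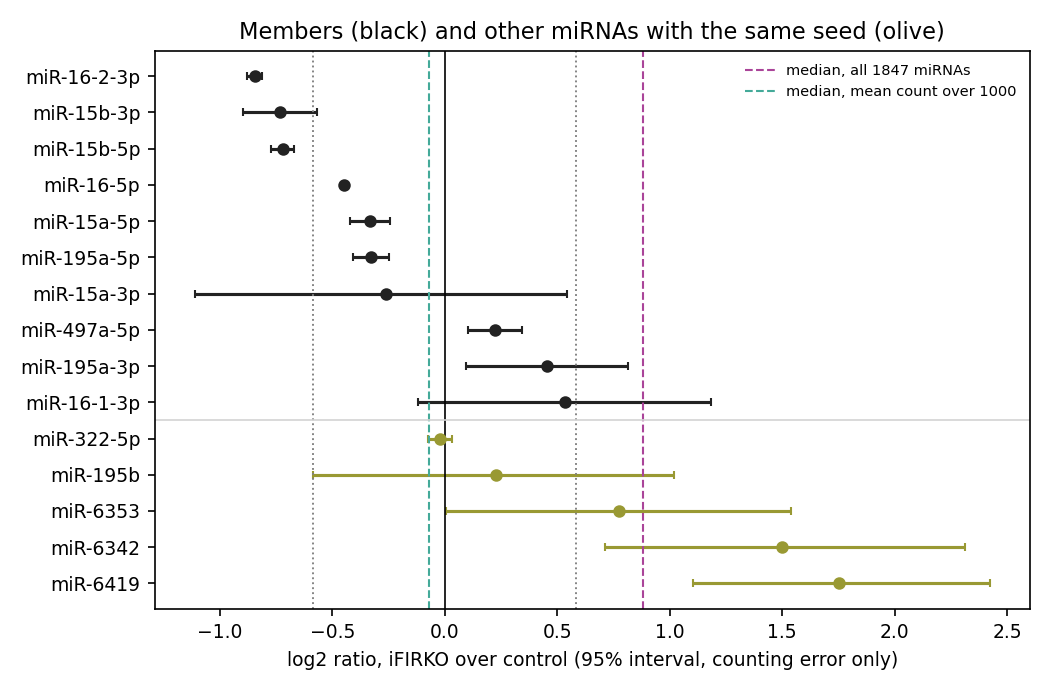
Log2 ratio of iFIRKO over control with 95% intervals from counting error, for the members (black, in order of ratio) and for the other listed miRNAs with the same seed (olive). Dotted lines mark 1.5-fold, and the dashed lines mark the medians of all 1847 miRNAs (0.88) and of the 118 with a mean count over 1000 (-0.07), and 3 members lie to the left of the lower 1.5-fold line.

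The hairpin pairs differed from each other when only the arms that belong to 1 locus were summed, which leaves out miR-16-5p. The Mir15b/Mir16-2 arms had 45385 counts in control and 15169 in iFIRKO, a ratio of 0.571 (95% interval 0.561 to 0.582). For the Mir15a/Mir16-1 arms the sums were 3286 and 1545, which gave 0.804 (95% interval 0.756 to 0.854). The Mir195a/Mir497 member arms, with sums of 5476 and 2905, were closest to 1 at 0.907 (95% interval 0.867 to 0.949). These sums hold unlike arms. The passenger miR-16-2-3p held 32293 of the 45385 control counts, and the guide miR-15a-5p held 3199 of the 3286. The Mir195a/Mir497 sum joins members on both sides of 1 (0.796, 1.17 and 1.37). Without miR-16-5p, the sums are not the whole output of the miR-16 loci.

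All 3 pairs of these sums differed beyond counting error by Fisher's exact test. The ratio of Mir15a/Mir16-1 was 1.41 times that of Mir15b/Mir16-2 (95% interval 1.32 to 1.499), and that of Mir15b/Mir16-2 was 0.630 times that of Mir195a/Mir497 (95% interval 0.6001 to 0.661). The smallest difference was between Mir15a/Mir16-1 and Mir195a/Mir497, a factor of 0.886 (95% interval 0.822 to 0.956, adjusted p = 0.0017, Fisher's exact test). Since a scaling moves all members by the same factor, the differences between these sums do not depend on it.

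Levels from the loci were unequal too. The arms of Mir15b/Mir16-2 were 13.8 times as abundant as those of Mir15a/Mir16-1 in control and 9.82 times in iFIRKO. The guides of these loci differed less, with miR-15b-5p at 3.73 times miR-15a-5p in control and 2.85 times in iFIRKO. The miR-16 passengers differed most. miR-16-2-3p had 702 times the counts of miR-16-1-3p in control and 269.7 times in iFIRKO.

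Arm balance was then compared, as the share of 3p counts in the 3p and 5p counts of a hairpin. All 5p members were more abundant than their 3p partners, whereas the median 3p share over the 562 hairpins with both arms above the floor was 43.8% in control and 46.2% in iFIRKO. For Mir15b the 3p share was 8.86% (95% Wilson interval 8.39 to 9.36) in control and 8.80% (8.02 to 9.64) in iFIRKO. For Mir15a it was 1.27% (0.934 to 1.71) and 1.33% (0.861 to 2.04). The arm balance of these hairpins differed between the libraries by less than counting error.

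The hairpins of miR-16 and Mir195a differed in arm balance. miR-16-2-3p fell from 3.15% (3.11 to 3.18) to 2.41% (2.36 to 2.45) of its sum with miR-16-5p, an arm ratio of 0.760 times control (Woolf's 95% interval 0.743 to 0.777). In contrast, miR-195a-3p was at 3.61% (3.08 to 4.23) in control and 6.06% (5.08 to 7.21) in iFIRKO, 1.72 times control (1.34 to 2.21, adjusted p = 0.00042, Fisher's exact test). miR-16-1-3p was at 0.0046% and 0.0091% of its sum with miR-16-5p, 1.98 times control (1.29 to 3.03, adjusted p = 0.0127, Fisher's exact test), on 46 and 39 counts.

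Of the 562 hairpins, 9.79% were called with a lower and 11.9% with a higher 3p balance in iFIRKO by the same test. Of the members' 5 hairpins, 1 was called lower and 2 higher. miR-16-5p comes from Mir16-1 and Mir16-2 and stands in both comparisons, and its counts cannot be divided between them. With both 3p arms summed, the arm ratio was 0.761 times control (0.745 to 0.779), so that miR-16-2-3p set it. For comparison, miR-497a-3p had 18 and 25 counts, 1.27% and 2.54% of the Mir497 arms, and was not called (adjusted p = 0.101, Fisher's exact test).

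**Figure D4:**
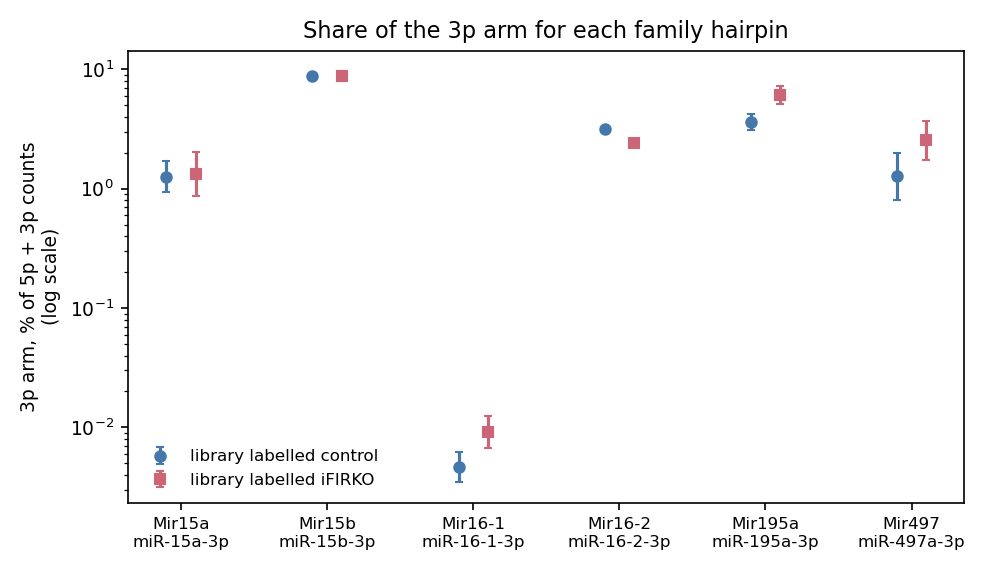
Share of the 3p arm in the summed 5p and 3p counts of each hairpin, in percent on a log axis, for the control library (blue circles) and the iFIRKO library (red squares), with Wilson 95% intervals. Mir15a and Mir15b are level between the libraries, Mir16-2 is lower in iFIRKO (3.15% and 2.41%), and Mir195a is higher (3.61% and 6.06%).

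Other miRNAs with the same seed did not all have ratios like those of the members. In the RefSeq table, 10 mature names carry the seed AGCAGCA, all 10 were listed, and 5 of them are not members. miR-322-5p, which comes from an X-linked hairpin and is the mouse counterpart of human miR-424, had 7979 counts (2090 CPM) in control and 4596 counts (2058 CPM) in iFIRKO, a ratio of 0.985 (95% interval 0.949 to 1.02). The ratio of miR-16-5p was 0.744 times that of miR-322-5p (95% interval 0.718 to 0.772), and that of miR-497a-5p was 1.19 times it (95% interval 1.08 to 1.30).

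The other 4 non-members with this seed were scarce, with at most 61 counts in either library, and their ratios are imprecise. With 35 and 24 counts, miR-195b had a ratio of 1.17 (95% interval 0.667 to 2.03). miR-6353 was counted 31 times in each library, which at these depths is a ratio of 1.71 (1.005 to 2.91, adjusted p = 0.0536, Fisher's exact test). miR-6342 went from 23 to 38 counts (ratio 2.82, interval 1.64 to 4.97) and miR-6419 from 31 to 61 (ratio 3.36, interval 2.15 to 5.36). Thus miRNAs with 1 seed had ratios from 0.608 for miR-15b-5p to 3.36 for miR-6419, the higher ones at low counts.

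The 5 non-members with a mean count of at least 1000 and a log2 ratio nearest to that of the family sum were miR-145a-5p (ratio 0.726), miR-486b-5p (0.732), miR-133b-3p (0.721), miR-30b-5p (0.721) and let-7b-3p (0.736). Likeness here is a distance of at most 0.018 log2 units in 1 ratio between 2 libraries. miR-486b-5p, which belongs to the erythroid miR-486 group, had a ratio that differed from that of miR-16-5p by a factor of 1.001 (95% interval 0.990 to 1.01). This closeness follows from the choice of the 5 among 112 candidates, since miR-16-5p sets the family sum almost alone. It is not a separate finding.

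Listed markers of red blood cells also had ratios below 1, as did 11.9% of all listed miRNAs and 59.3% of those with a mean count over 1000. All 7 listed erythroid arms (miR-451a, both arms of Mir144 and the arms of miR-486a and miR-486b) had ratios below 1, from 0.409 to 0.760 by the labels as given (with exchanged labels, above 1, from 1.32 to 2.45). Their sum went from 4.75% of control counts to 3.22% of iFIRKO counts, a ratio of 0.679 (95% interval 0.673 to 0.685), and none was at the floor. The family ratio was 1.07 times this sum (95% interval 1.06 to 1.08). miR-16-5p differed from miR-451a, with a ratio 1.79 times higher (95% interval 1.74 to 1.85). miR-16-2-3p and miR-486a-3p had ratios that differed by a factor of 1.01 (95% interval 0.958 to 1.07).

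The counts of miR-451a over those of miR-23a-3p, a pair used to judge haemolysis of serum, were 0.645 in control and 0.288 in iFIRKO. miR-16-5p over miR-23a-3p went from 30.3 to 24.3. Liver markers went the other way. All 4 listed liver miRNAs had ratios above 1, their sum rising from 12.1% to 20.2% of counts, with ratios from 1.35 to 1.71 for miR-122-5p, the major hepatocyte miRNA. The 6 miRNAs listed here as platelet and myeloid all had ratios below 1 (sum 0.796 of control). They were miR-223-3p, miR-150-5p and both arms of miR-126a and miR-142a, and whether they mark only these cells was not tested. The 4 muscle miRNAs had a summed ratio of 0.918, 3 below and 1 above 1. The part of these sources in the family's ratios was not tested.

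The scaling of the libraries decided how far the family lay below control. The summed ratio was 0.660 when totals were taken without the family, 0.624 with miR-148a-3p as reference, 0.605 with the median of ratios and 0.402 with TMM factors. TMM divides each ratio by 1.81, and all 10 members then lay below 1. As deposited 7 did, and with the median of ratios 8 did. All miRNAs moved as well, with a median log2 ratio of 0.88 as deposited, 0.62 with the median of ratios and 0.03 under TMM. The order of the members is the same under each scaling.

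**Figure D5:**
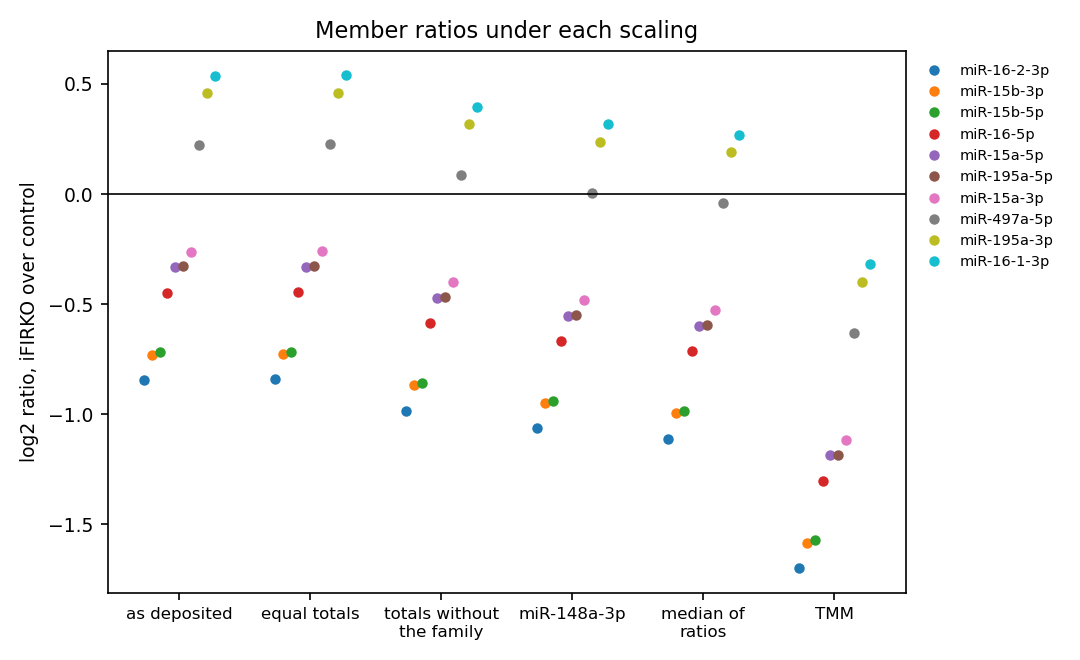
Log2 ratio of iFIRKO over control for each member (colours) as deposited and under the 5 other scalings of the libraries. Each scaling moves all members by 1 factor, miR-497a-5p crosses 0 with the median of ratios, and miR-195a-3p and miR-16-1-3p cross 0 only with TMM.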

How the data were processed

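EV RNA from pooled serum was made into QIAseq miRNA libraries, sequenced on a NextSeq500 and analysed by the authors on the GeneGlobe Data Analysis Center. The genome build in the submitters' notes is mm10, and the aligner, miRNA release and use of molecular identifiers were not given in the sources used here. The deposited values are a normalised signal, a whole count scaled by a constant of its library, which was found by least squares, and 100% of values came out whole within 0.05 counts. Depths were 3817902 and 2233498 counts, and 99.3% and 99.1% of them belonged to listed miRNAs. No count from 2 to 9 occurred, so the lowest value stands for fewer than 10 counts, or less than 2.62 CPM in control and 4.48 CPM in iFIRKO.

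The ratio of deposited values was computed with no pseudocount. Intervals at 95% were Clopper-Pearson for ratios, Wilson for shares, Poisson for levels and Woolf for ratios of ratios. Two-sided Fisher's exact tests were adjusted by Benjamini-Hochberg over all 1736 miRNAs above the floor in both libraries, all 562 hairpins, 45 member pairs, 3 locus pairs or 7 other comparisons, and were tested on simulated data. They compare libraries. Leaving out miRNAs at the floor was decided after the data were seen. The members and lists were chosen with earlier results of these data known.

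Named were all members, other listed miRNAs with the seed of miR-16-5p, the 5 abundant miRNAs (mean count 1000 or more) nearest to the family sum in ratio, and the arms of Mir144, Mir451a and Mir486 and Mir3107 (miR-486b), miR-122-5p and miR-148a-3p. The listed liver miRNA miR-885-5p was not among the miRNAs analysed here. Alternatives were 5 scalings, 1 CPM added, mean count filters at 10 and 100, a 2-fold threshold, the sum without miR-16-5p, 1 arm only and summed 3p arms. Under other scalings Fisher's exact test was replaced by a binomial test. Sequences were from RefSeq (GRCm38.p6) and hairpin positions from GENCODE M21. Tools were Python 3.11.15, scipy 1.17.1 and edgeR 4.0.16 (TMM only) in R 4.3.3.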

Additional observations from a re-analysis of the deposited data

How the results depend on the processing

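No paired analysis was possible because only 1 library was made for either genotype, and leaving out a replicate was not possible for the same reason. The summed family ratio (0.727) was 0.660 with totals without the family, 0.624 with miR-148a-3p as reference, 0.605 with the median of ratios, 0.402 with TMM factors and 0.619 without miR-16-5p. The number of members over 1.5-fold lower (3) was 6 with the median of ratios, 8 with TMM factors and 0 at a 2-fold threshold. Of all listed miRNAs, 3.03% were over 1.5-fold lower as deposited, 6.12% with the median of ratios and 19.5% with TMM factors, and 2.11% were over 2-fold lower as deposited, so each scaling moved all miRNAs and not the members alone. These shares include miRNAs at the floor of a library, whose ratios rest on the lowest value. The median log2 ratio of the members was -0.47, -0.55, -0.60 and -1.18 under the same 4 scalings in the same order. The number of members called higher (2) was 0 under each of these 4 scalings. miR-497a-5p changed direction with the median of ratios (0.971) and TMM (0.646), and miR-195a-3p (0.759) and miR-16-1-3p (0.802, from 1.45 with an interval that included 1) with TMM. The arm ratio of Mir16-1 (1.98) became 0.761 when both miR-16 passengers were summed, since miR-16-2-3p then holds nearly all of the 3p counts. Equal totals, run for the results above other than the arm ratio, moved none of them beyond its limits. Adding 1 CPM did not either for the summed ratio, the 1.5-fold counts, the median and the single ratios, nor did the filters on counts for the 1.5-fold counts and the median. Depth limits miR-15a-3p and miR-16-1-3p most.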

Other observations

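The neighbours of miR-322-5p were looked at after their values were seen, because miR-322-5p shares the family seed and did not move with miR-16-5p. Its other arm, miR-322-3p, had 453 counts in control and 307 in iFIRKO, a ratio of 1.16 (95% interval 0.999 to 1.34). miR-503-5p, from the hairpin beside Mir322, was counted 2222 times in control and 1455 times in iFIRKO (ratio 1.12, 95% interval 1.05 to 1.20), and miR-503-3p was at 193 and 202 CPM (ratio 1.04, 95% interval 0.927 to 1.18). On the deposited scale, no arm of these X-linked hairpins was over 1.5-fold different between the libraries. Of all listed miRNAs, 66.3% were over 1.5-fold higher and 3.03% lower on that scale. TMM factors divide each of these ratios by 1.81, which puts every arm named here over 1.5-fold lower.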
